A study of Mus musculus with 6 samples.

Results

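The 10 genes described here encode adaptors and regulators that act in signalling below the receptor CD40. They are the TRAF genes Traf1, Traf2, Traf3, Traf5 and Traf6, the ubiquitin ligase gene Birc3, the kinase gene Map3k14, and the inhibitor genes Tnfaip3, Tnip1 and Cyld. They were picked by symbol, with no threshold on their levels, from the 46316 gene symbols of the count table, and all 10 were among the 13863 genes with enough counts to be tested. Splenic naive B cells of WT mice were kept in culture for 48 hours and measured by RNA sequencing, in a study that asked how bryostatin 1, an activator of protein kinase C, changes class switching. The IL-4 + bryostatin 1 group (3 samples) received 5 ng/mL IL-4 and 0.8 nM bryostatin 1, and the IL-4 group (3 samples) received 5 ng/mL IL-4 alone. Anti-CD40 antibody, which stands in for T cell help, was present at 500 ng/mL in both groups, so CD40 was engaged in every sample and no sample shows these genes without that signal. Strain and age are not stated. It is also not stated whether replicates were separate animals or cultures, and the spread behind each p-value may therefore be only technical.

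CD40 has no enzyme activity of its own and signals through TRAF proteins, which bind its tail and carry ubiquitin ligases to it. In resting B cells TRAF3, together with TRAF2 and the cIAP ligases, holds the kinase NIK (the product of Map3k14) at a low level by having it degraded, and engagement of CD40 relieves this and opens the noncanonical NF-κB pathway. TRAF6 and the cIAPs feed the canonical NF-κB and MAP kinase pathways, while A20 (Tnfaip3), its partner ABIN1 (Tnip1) and the deubiquitinase CYLD restrain them.

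With one table row per gene, the libraries held 19959971 to 24896427 counts with IL-4 + bryostatin 1 and 20564293 to 22219354 counts with IL-4. Levels are in CPM, the counts of a gene relative to the scaled library size, and every one of the 10 genes had between 323 and 6492 counts in each library. A gene was called higher or lower where edgeR's quasi-likelihood test gave an adjusted p under 0.05 over all tested genes. The common biological coefficient of variation was 3.89%, and 58.1% of all tested genes were called, 30.1% higher and 27.9% lower with bryostatin 1. The label of the samples as B cells held in the data, since 6 B cell markers (Cd79a, Cd79b, Ms4a1, Pax5, Cd22 and Blnk) summed to 3822 to 4062 CPM with IL-4 + bryostatin 1 and to 4969 to 5201 CPM with IL-4.

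Of the 10 genes, 8 were called, 2 higher (Traf6 and Tnfaip3) and 6 lower (Traf1, Traf3, Traf5, Birc3, Tnip1 and Cyld). Traf2 and Map3k14 did not pass the test. The share called lower was 6 of 10 against the 27.9% of all tested genes, and the share called higher was 2 of 10 against 30.1%. The median log2 fold change was -0.33 over the 10 genes and 0.0034 over all tested genes, and the median size of the change was 0.46 over the 10 genes and 0.25 over all tested genes. The groups did not overlap for 8 of the 10 genes, compared with 63.5% of all tested genes. Fewer cells of a type and less RNA per cell cannot be told apart in such bulk samples.

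**Figure D1:**
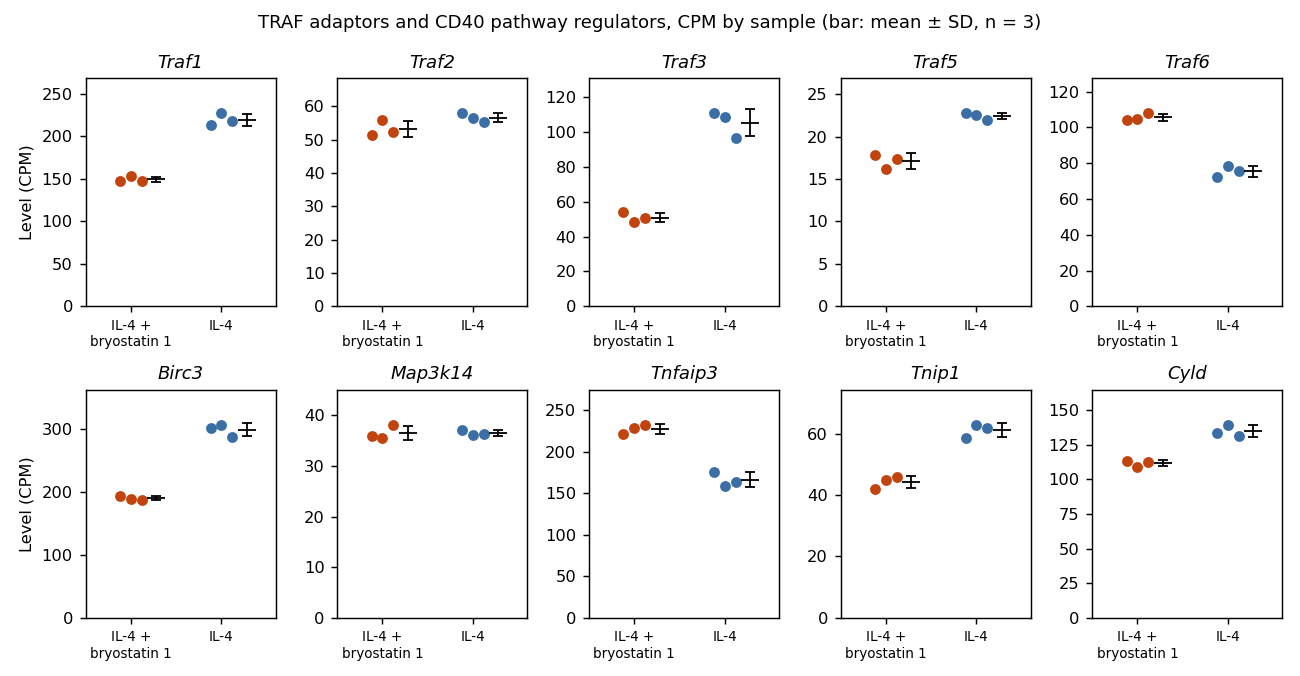
Level of each of the 10 genes in every sample, in CPM on axes that start at 0, with IL-4 + bryostatin 1 at the left (orange) and IL-4 at the right (blue) of each panel; the bar beside the points is the mean ± SD (n = 3). The groups are apart for 8 genes, and the points of Traf2 and Map3k14 overlap.

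The 250 bases before the annotated start of each gene were read from RefSeq (GRCm38.p6), in which all 10 symbols were matched. Letter patterns were searched on both strands of windows of 300 bases, 250 before and 50 after the start. The NF-κB consensus was found in 4 of the 11 windows of the 10 genes (Tnfaip3 has 2 windows) and in 11.2% of all 32851 windows. The AP-1 pattern TGANTCA was found in the window of Tnfaip3 alone among the 10 genes, and in 7.81% of all windows. The CRE pattern TGACGTCA and the ETS pattern CCGGAAGT were found in none of the 10 genes' windows, and in 1.79% and 3.89% of all windows. The windows with an NF-κB consensus are shown because they belong to the gene with the largest change and to the inhibitors. Each runs 5′ to 3′ on the strand of its gene and ends at the base before the start, and capitals mark the NF-κB consensus and, in Tnfaip3, also the AP-1 pattern.
Traf3 (chr12:111166120-111166369, plus strand): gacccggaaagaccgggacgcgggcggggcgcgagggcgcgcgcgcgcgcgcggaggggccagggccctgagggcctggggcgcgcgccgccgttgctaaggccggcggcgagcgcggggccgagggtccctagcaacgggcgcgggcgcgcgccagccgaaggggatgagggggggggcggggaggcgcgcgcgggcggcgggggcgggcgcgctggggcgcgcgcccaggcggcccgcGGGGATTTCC
Tnfaip3 (chr10:19015411-19015660, minus strand): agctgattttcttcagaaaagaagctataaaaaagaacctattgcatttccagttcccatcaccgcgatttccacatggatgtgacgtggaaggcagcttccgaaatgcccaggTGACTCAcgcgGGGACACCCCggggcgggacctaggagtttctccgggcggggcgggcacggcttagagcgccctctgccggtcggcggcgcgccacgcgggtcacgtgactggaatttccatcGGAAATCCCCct
Tnip1 (chr11:54962941-54963190, minus strand): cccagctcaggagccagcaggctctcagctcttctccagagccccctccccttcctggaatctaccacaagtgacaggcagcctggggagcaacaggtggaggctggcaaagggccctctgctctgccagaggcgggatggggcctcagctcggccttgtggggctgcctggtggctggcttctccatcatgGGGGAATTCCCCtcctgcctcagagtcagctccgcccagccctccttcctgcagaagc
Cyld (chr8:88696778-88697027, plus strand): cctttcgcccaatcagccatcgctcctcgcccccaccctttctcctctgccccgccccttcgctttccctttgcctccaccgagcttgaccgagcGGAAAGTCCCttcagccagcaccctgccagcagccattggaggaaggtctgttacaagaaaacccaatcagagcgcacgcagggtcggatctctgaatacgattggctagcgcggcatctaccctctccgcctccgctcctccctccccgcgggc
In Traf3 the match GGGGATTTCC took up the last bases before the start, from -10 to -1. Tnfaip3 had GGGACACCCC from -125 to -116 and GGAAATCCCC from -12 to -3, with the AP-1 match TGACTCA from -136 to -130. The capitals in Tnip1 cover 3 matches that overlap each other, from -58 to -47, counted from the RefSeq start, whose following bases were not found in the GENCODE transcripts of Tnip1, as they were for the other 3 genes shown. Cyld had GGAAAGTCCC from -155 to -146. The genes with a match included 1 that was called higher (Tnfaip3) and 3 that were called lower (Traf3, Tnip1 and Cyld). A match is a description of letters and not a bound site, and the lack of a match in the other windows says nothing about the factors.

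Among the adaptors, Traf3 changed most. Its product is the TRAF that recruits NIK for degradation, and loss of Traf3 in mouse B cells is known to prolong their survival. Traf3 was at 53.8, 48.5 and 50.4 CPM with IL-4 + bryostatin 1, against 111, 108 and 96.4 CPM with IL-4. The highest sample with bryostatin 1 lay far below the lowest sample without it. Its mean was 50.9 ± 2.68 CPM with IL-4 + bryostatin 1 and 105 ± 7.66 CPM with IL-4 (SD, n = 3 each). Traf3 fell by 1.04 on the log2 scale (standard error 0.053, edgeR adjusted p = 9.91e-12), which is 0.485 times its level with IL-4. Of all tested genes, 9.94% had a larger change, and Traf3 was the only 1 of the 10 genes with a log2 change of at least 1 in size, a size that 10.6% of all tested genes reached while also being called.

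Traf1 also fell. Its product is a TRAF without the ring domain of the others, which pairs with TRAF2, and its gene is known to be induced by NF-κB. Traf1 was at 147, 153 and 148 CPM with IL-4 + bryostatin 1, against 213, 227 and 218 CPM with IL-4. The samples of each group lay close together, with no overlap between the groups. The log2 fold change was -0.56 (standard error 0.037, edgeR adjusted p = 3.95e-10), from means of 149 ± 3.23 CPM with IL-4 + bryostatin 1 and 219.6 ± 7.03 CPM with IL-4 (SD, n = 3 each).

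Traf5, which encodes a close relative of TRAF2 and TRAF3 that also binds CD40, had the lowest counts of the 10 genes. It was at 17.9, 16.1 and 17.4 CPM with IL-4 + bryostatin 1, against 22.7, 22.5 and 21.98 CPM with IL-4. All samples with bryostatin 1 were below all samples without it. Traf5 fell by 0.39 on the log2 scale (standard error 0.066, edgeR adjusted p = 7.23e-05). In the RefSeq annotation the span of Traf5 also holds the pseudogene Gstp-ps, which had 180, 119 and 113 counts with IL-4 + bryostatin 1 and 166, 179 and 175 counts with IL-4. These counts are not scaled, and the sample with 180, IL-4 + bryostatin 1 replicate 1, was the deepest library. The counting rule for reads at overlapping genes is not stated, and the part of shared reads in the fall of Traf5 was not tested.

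Traf6 was the only TRAF gene of the 5 that was called higher. TRAF6 binds CD40 at a site of its own, nearer the membrane, and makes ubiquitin chains that activate the kinase TAK1. Traf6 was at 104, 105 and 108 CPM with IL-4 + bryostatin 1, against 72.5, 78.2 and 75.5 CPM with IL-4. The groups were clearly apart and the samples with bryostatin 1 were nearly equal. The log2 fold change was 0.48 (standard error 0.040, edgeR adjusted p = 9.26e-09), a 1.40-fold rise. Of the TRAF genes outside the 10, Traf4 was called higher with a log2 fold change of 0.38 and Traf7 lower with -0.21, both named to complete the family after their values were seen.

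Traf2, whose product brings the cIAP ligases to the receptor, was at 51.4, 55.8 and 52.2 CPM with IL-4 + bryostatin 1, against 57.9, 56.6 and 55.2 CPM with IL-4. The highest sample with bryostatin 1 lay above the lowest sample without it. The log2 fold change was -0.09, with a 95% interval from -0.19 to 0.0044 (edgeR adjusted p = 0.095). This call rested on 1 library. Without IL-4 + bryostatin 1 replicate 2, the highest of its group, the log2 fold change of Traf2 was -0.13 and passed the test (edgeR adjusted p = 0.036).

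Birc3 encodes cIAP2, a ubiquitin ligase that TRAF2 carries into the complex, and its gene is a known target of NF-κB. It was at 194, 189 and 187 CPM with IL-4 + bryostatin 1, against 302, 307 and 287 CPM with IL-4. The groups were well apart. Birc3 fell by 0.65 on the log2 scale (standard error 0.037, edgeR adjusted p = 3.74e-11), the largest fall of the 10 genes after Traf3. Its paralog Birc2, which encodes cIAP1, was at 109, 99.5 and 105 CPM with IL-4 + bryostatin 1, against 182, 179 and 177 CPM with IL-4. Birc2 fell by 0.78 (standard error 0.039, edgeR adjusted p = 6.91e-12). The 2 genes are paralogs, and whether any reads were shared between them was not tested.

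Map3k14 showed no detectable change. Its product NIK, the kinase that the TRAF complex keeps low, is controlled mainly by protein breakdown, which RNA does not show. Map3k14 was at 35.9, 35.5 and 38.2 CPM with IL-4 + bryostatin 1, against 37.2, 36.1 and 36.2 CPM with IL-4. The groups overlapped, and the highest and the lowest of the 6 values were both in samples with bryostatin 1. The log2 fold change was 0.0011, with a 95% interval from -0.11 to 0.11 (edgeR adjusted p = 0.987).

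**Figure D2:**
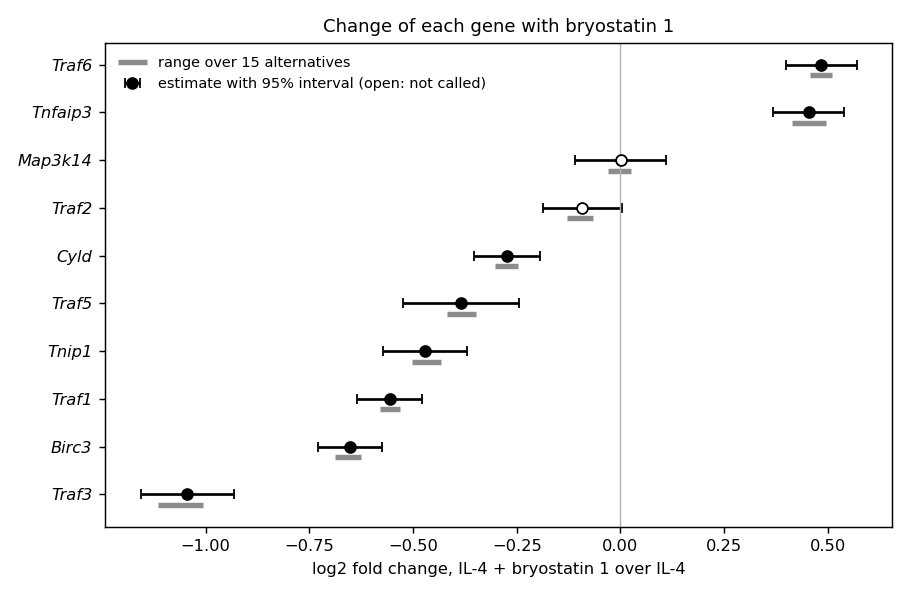
log2 fold change of each of the 10 genes, IL-4 + bryostatin 1 over IL-4, with its 95% interval (black; open circles were not called) and the range over 15 other ways of scaling, filtering, counting or testing, or leaving out a sample (grey). Traf3 stands lowest at -1.04 and Traf6 highest at 0.48, and the grey bars stay on one side of 0 for all genes but Map3k14.

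The inhibitor genes did not move together. Tnfaip3, which encodes the ubiquitin-editing enzyme A20 and is a feedback target of NF-κB, was at 222, 228 and 233 CPM with IL-4 + bryostatin 1, against 176, 159 and 164 CPM with IL-4. All samples with bryostatin 1 were higher. Tnfaip3 rose by 0.45 on the log2 scale (standard error 0.040, edgeR adjusted p = 2.51e-08), a 1.37-fold rise.

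Tnip1 encodes ABIN1, which binds ubiquitin chains and A20. It was at 42.0, 44.8 and 45.9 CPM with IL-4 + bryostatin 1, against 58.6, 63.1 and 62.1 CPM with IL-4. The groups did not overlap, and the direction was opposite to that of Tnfaip3. Tnip1 fell by 0.47 on the log2 scale (standard error 0.048, edgeR adjusted p = 1.53e-07).

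Cyld encodes a deubiquitinase that removes certain ubiquitin chains, linear ones among them, from signalling proteins such as TRAF proteins. It was at 113, 109 and 112 CPM with IL-4 + bryostatin 1, against 133, 139.6 and 131 CPM with IL-4. The fall was the smallest of those called, at 0.27 on the log2 scale (standard error 0.038, edgeR adjusted p = 6.44e-06), and 46.2% of all tested genes had a larger change. The groups still did not overlap.

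For each of the 8 called genes the two-sided exact permutation test over the 6 samples gave p = 0.1. This is the smallest value that 3 against 3 samples allow, so the permutation test cannot decide the calls. The calls rest on edgeR's test, which pools the spread over genes. Whether they need this pooling was not tested. The table holds between 1 and 27 transcript rows for each of the 10 genes, and the rows of 1 gene gave nearly the same change, with log2 ratios at most 0.018 apart, the widest in Birc3. The rows also held nearly the same counts, the lowest at 0.886 to 1 times the highest, except in Traf1, where the lowest was at 0.484.

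Ratios of 2 of these genes within each library do not depend on how libraries are scaled. The 10 pairs were taken among genes of this pathway, and the products of a pair need not form a complex. The values below are log2 ratios of counts, in which only differences between groups are compared because the genes differ in length. Map3k14 relative to Traf3, the kinase relative to the adaptor that recruits it for breakdown, was at -0.58, -0.45 and -0.40 with IL-4 + bryostatin 1, against -1.57, -1.59 and -1.41 with IL-4. The ratio was higher in all samples with bryostatin 1, by 1.05 on the log2 scale or 2.07-fold. Of the pair, Traf3 fell in the test on scaled counts and Map3k14 did not pass it. Map3k14 relative to Traf2 overlapped between the groups, with a difference of 0.09 (two-sided exact permutation p = 0.4).

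Relative to Traf2, the ratio of Traf3 was lower with bryostatin 1 by 0.96, with means of -0.06 ± 0.14 with IL-4 + bryostatin 1 and 0.89 ± 0.08 with IL-4 (SD, n = 3 each). The differences to Traf2 were -0.46 for Traf1, -0.56 for Birc3 and -0.30 for Traf5, and 0.58 for Traf6. Of the inhibitors, Tnip1 relative to Tnfaip3 was at -2.40, -2.35 and -2.34 with IL-4 + bryostatin 1, against -1.59, -1.33 and -1.40 with IL-4, a difference of -0.92. Cyld relative to Tnfaip3 differed by -0.73. For 9 of the 10 pairs the groups did not overlap, a share that was not computed over pairs of all tested genes. Of single tested genes, 63.5% did not overlap. Each of the 9 pairs set a called gene against 1 that was not called or was called in the other direction. Their count is therefore not separate from the calls. The two-sided exact permutation test gave p = 0.1 for the 9 pairs, the smallest it can give, or 0.111 after Benjamini-Hochberg adjustment over the 10 pairs. No pair could pass a threshold of 0.05.

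**Figure D3:**
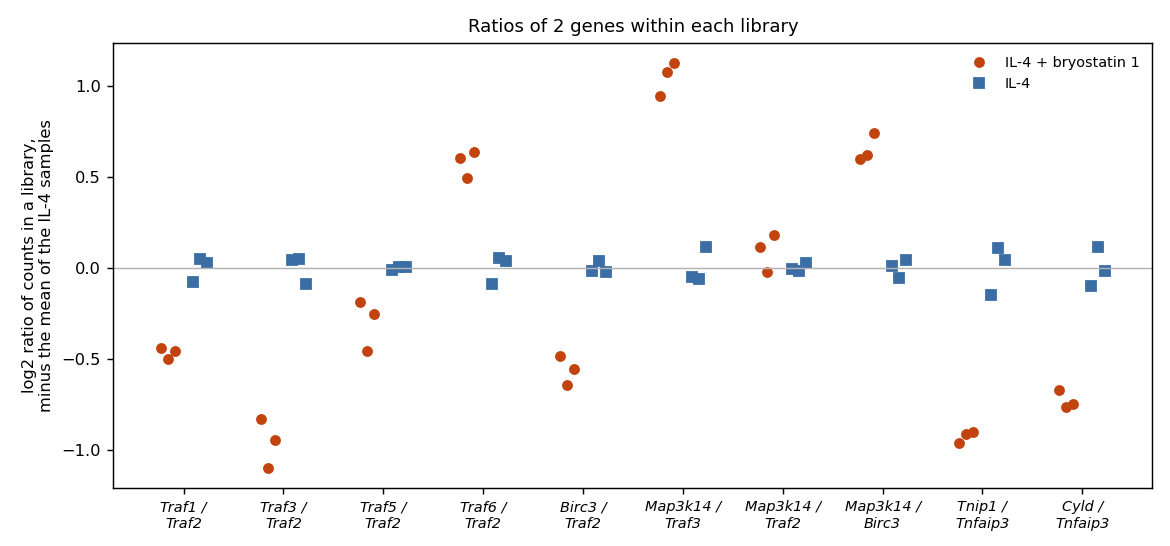
log2 ratio of the counts of 2 genes in each library, set to 0 at the mean of the IL-4 samples of that pair, for 10 pairs; circles at the left of a pair are IL-4 + bryostatin 1 samples and squares at its right are IL-4 samples. Map3k14 over Traf3 is raised by 1.05, Traf3 over Traf2 and Tnip1 over Tnfaip3 differ by -0.96 and -0.92, and Map3k14 over Traf2 overlaps.

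Genes around the 10 in the same pathway were followed in 6 lists with 78 genes, of which 70 were tested, 28 called higher and 31 lower. Each list is to be read against all tested genes, of which 30.1% were called higher and 27.9% lower. The median log2 fold change of all tested genes was 0.0034. The receptors that bind TRAFs were mostly lower, with 5 of 8 tested genes called lower and 2 higher (median log2 fold change -0.39). Among the 5, Tnfrsf8, named after its values were seen, had groups that overlapped (edgeR adjusted p = 0.0197). Cd40 itself was at 134, 132 and 130.2 CPM with IL-4 + bryostatin 1, against 233, 227 and 211 CPM with IL-4. It fell by 0.76 on the log2 scale (standard error 0.040, edgeR adjusted p = 1.58e-11), with the groups far apart. Tnfrsf13c, the gene of the BAFF receptor, which signals through TRAF3 and NIK as CD40 does, fell by 0.60, and Tnfrsf18, the gene of GITR, fell by 0.58.

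The receptor gene with the largest change was Tnfrsf11a, which encodes RANK. It was at 12.8, 14.6 and 14.5 CPM with IL-4 + bryostatin 1, against 0.583, 0.520 and 0.685 CPM with IL-4. The groups were far apart, and RANK is known to signal through TRAF6. Tnfrsf11a rose by 4.53 on the log2 scale (standard error 0.15, edgeR adjusted p = 3.31e-14). Of the 13 receptor genes, 5 (Ltbr, Cd27, Tnfrsf1a, Tnfrsf9 and Tnfrsf17) had at most 6 counts in any library and were not tested.

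Of the 16 other adaptors and ubiquitin ligases, all were tested, 10 were called lower and 3 higher (median log2 fold change -0.16). Besides Birc2, the falls included Traf3ip2, the gene of the IL-17 receptor adaptor ACT1, at -0.60, and Tank, the gene of an adaptor that binds TRAFs and the kinase TBK1, at -0.53. Tifa, whose product binds TRAF6 and makes it oligomerise, was at 38.6, 40.3 and 42.4 CPM with IL-4 + bryostatin 1, against 12.6, 13.6 and 16.5 CPM with IL-4. This was a rise of 1.5 on the log2 scale (standard error 0.080, edgeR adjusted p = 1.76e-11), in the opposite direction to most of the list.

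The list of 13 kinases and their partner subunits, in which Tab1, Tab2, Tab3 and Ikbkg are not kinases themselves, split into 6 called lower, 2 higher and 5 that did not pass the test (median log2 fold change -0.06). The largest falls were those of Map3k8, the gene of the ERK pathway kinase TPL2, at -0.83, of Map3k5, the gene of the stress kinase ASK1, at -0.66, of Tab2, the gene of the ubiquitin-binding partner of TAK1, at -0.52, and of Ikbke at -0.48. Map3k7, the gene of TAK1 itself, named outside the rule after its values were seen, was at 99.4 ± 5.76 CPM with IL-4 + bryostatin 1 and 97.2 ± 0.312 CPM with IL-4 (SD, n = 3 each) and did not pass the test. The 2 kinases called higher were Chuk and Map3k3, named here after their values were seen. Chuk, the gene of the kinase that NIK activates, had a log2 fold change of 0.16, which did not pass the test without IL-4 + bryostatin 1 replicate 1 (log2 fold change 0.12, edgeR adjusted p = 0.053).

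Of 12 tested deubiquitinases and other inhibitors, 9 were called higher and 1 lower, with a median log2 fold change of 0.27, on the side of Tnfaip3 and opposite to Tnip1 and Cyld. The other ABIN genes differed from Tnip1 in direction. Tnip3 was at 4.97, 4.95 and 5.93 CPM with IL-4 + bryostatin 1, against 2.04, 2.41 and 2.38 CPM with IL-4, a rise of 1.21 on the log2 scale (standard error 0.15, edgeR adjusted p = 1.60e-06), and Tnip2 rose by 0.70. The deubiquitinase gene Otub2 rose by 0.86 and Rnf11, whose product works in a complex with A20, rose by 0.53.

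All 11 genes of NF-κB subunits and their inhibitors were called, 5 higher and 6 lower (median log2 fold change -0.22). The atypical inhibitor Bcl3, which binds the p50 and p52 subunits, was at 12.7, 10.7 and 12.4 CPM with IL-4 + bryostatin 1, against 44.5, 44.6 and 40.6 CPM with IL-4. It fell by 1.85 on the log2 scale (standard error 0.071, edgeR adjusted p = 2.09e-13). Nfkbid, another atypical inhibitor, fell by 2.06, although its IL-4 samples were uneven at 36.3, 23.1 and 19.5 CPM. The 2 subunits of the noncanonical pathway went in opposite directions, with Nfkb2 at 774.5 ± 13.3 CPM with IL-4 + bryostatin 1 and 512 ± 6.77 CPM with IL-4, and Relb at 60.7 ± 1.28 CPM with IL-4 + bryostatin 1 and 96.4 ± 2.49 CPM with IL-4 (SD, n = 3 each). Nfkb2 rose by 0.60 and Relb fell by 0.67.

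Genes that B cells are known to raise after CD40 engagement were called higher in 7 and lower in 3 of 10 tested cases (median log2 fold change 0.48). Ccl22, a chemokine that attracts T cells, was at 419, 418 and 425 CPM with IL-4 + bryostatin 1, against 141, 132 and 133 CPM with IL-4, a rise of 1.63 on the log2 scale (standard error 0.037, edgeR adjusted p = 1.45e-16). Bcl2l1, which encodes the survival protein BCL-XL, rose by 1.51, Ebi3, the gene of a cytokine subunit, by 0.95 and Cd44, the gene of the hyaluronan receptor, by 0.94. The lower genes were Cd83, Cd86 and Icam1, named after their values were seen, with log2 fold changes of -0.66, -0.71 and -0.29. Cd83 was at 622 ± 13.2 CPM with IL-4 + bryostatin 1 and 985 ± 12.3 CPM with IL-4 (SD, n = 3 each). Ccl17, Il6 and Tnfrsf9, with at most 7 counts in any library, were not tested.

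**Figure D4:**
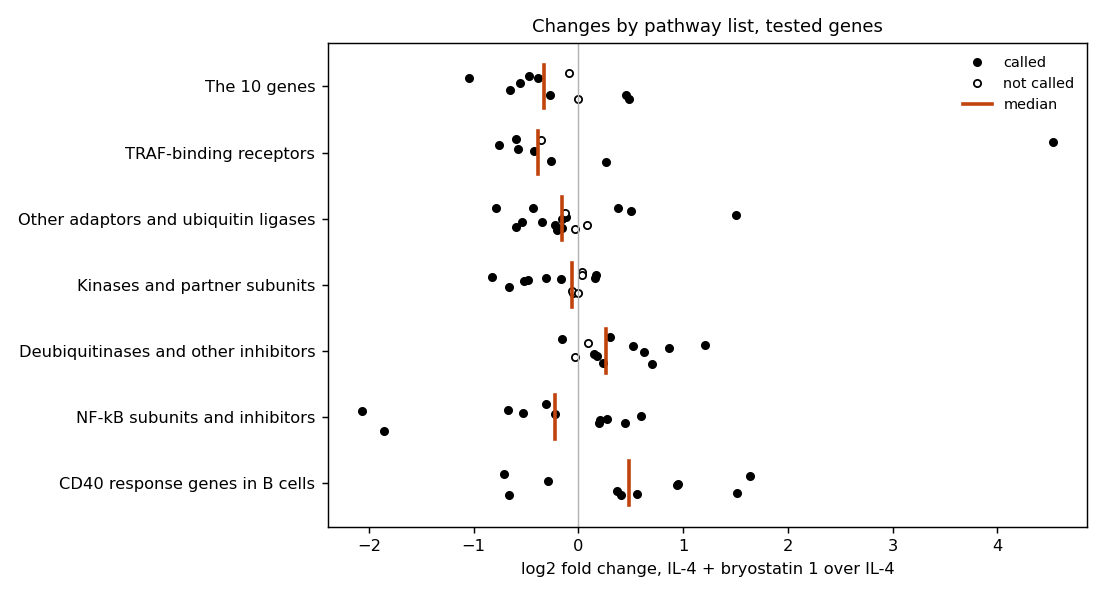
log2 fold change of each tested gene, IL-4 + bryostatin 1 over IL-4, for the 10 genes and for 6 lists of the same pathway; filled points were called, open points were not, and the orange line is the median of the list. The medians run from -0.39 for the receptors to 0.48 for the CD40 response genes, and Tnfrsf11a lies far to the right at 4.53.

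Summed levels of markers of other cell types also moved with the groups. The 8 T cell markers summed to 73.7 to 84.1 CPM with IL-4 + bryostatin 1 and to 36.2 to 40.1 CPM with IL-4. Nearly all of this was Lck, with 1545 to 1967 counts with IL-4 + bryostatin 1 and 775 to 804 counts with IL-4. Trac, the other T cell marker that was tested, had 22 to 48 counts with IL-4 + bryostatin 1 and 10 to 20 counts with IL-4. Both were called higher, with log2 fold changes of 1.05 for Lck and 1.00 for Trac. The other 6, Cd3d, Cd3e, Cd3g, Cd4, Cd8a and Trbc1, had 0 to 7 counts with IL-4 + bryostatin 1 and 0 to 2 counts with IL-4.

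The 7 markers of monocytes and macrophages summed to 22.7 to 25.7 CPM with IL-4 + bryostatin 1 and to 5.44 to 8.28 CPM with IL-4. Most of this with bryostatin 1 was Adgre1, which was called higher with a log2 fold change of 2.64, while Lyz2, at 40 to 77 counts with IL-4 + bryostatin 1 and 32 to 67 counts with IL-4, and Itgam did not pass the test. The other 4 (Csf1r, Cd14, Fcgr1 and Ly6c2) had 0 to 13 counts with IL-4 + bryostatin 1 and 0 to 12 counts with IL-4. The 6 dendritic cell markers summed to 41.1 to 43.9 CPM with IL-4 + bryostatin 1 and to 16.5 to 17.9 CPM with IL-4, most of it Zbtb46. Zbtb46 and Itgax were called higher, with log2 fold changes of 1.48 and 2.16, and Flt3 was called lower with -1.24. Itgax had 60 to 88 counts with IL-4 + bryostatin 1 and 7 to 22 counts with IL-4, and the other 3 (Siglech, Xcr1 and Clec9a) had 0 to 11 counts with IL-4 + bryostatin 1 and 0 to 8 counts with IL-4.

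The 6 NK cell markers summed to 1.499 to 2.69 CPM with IL-4 + bryostatin 1 and to 0.535 to 0.640 CPM with IL-4. Gzma, the only 1 tested, had 15 to 44 counts with IL-4 + bryostatin 1 and 3 to 6 counts with IL-4 and was called higher with a log2 fold change of 2.58. The other 5 (Ncr1, Klrb1c, Klrd1, Nkg7 and Eomes) had 0 to 13 counts with IL-4 + bryostatin 1 and 0 to 6 counts with IL-4. No marker of neutrophils or red blood cells was tested, and their sums were at most 1.02 CPM.

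The 5 plasma cell markers summed to 547 to 565 CPM with IL-4 + bryostatin 1 and to 529 to 555 CPM with IL-4, but the single genes differed more than the sum. Irf4 was at 341 CPM with IL-4 + bryostatin 1 and 231 CPM with IL-4 on average, and Xbp1 at 171 CPM with IL-4 + bryostatin 1 and 291 CPM with IL-4. Prdm1, Jchain and Sdc1, also called higher, had log2 fold changes of 1.68, 1.28 and 1.03, and Xbp1 was the 1 called lower. Of the 6 B cell markers given here, 5 were called lower and Cd79b did not pass the test, which does not describe the whole list because it is not reported in full. The part of these shifts in the changes of the 10 genes was not tested.

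The genes closest in pattern were sought for the highest and the lowest of the 10 log2 fold changes, by the root mean square difference of mean-centred log2 CPM over the 6 samples, among 10307 genes. Nearest to Traf6 were Asxl1 (0.019), Bhlhe40 (0.019) and Slc43a2 (0.020). Nearest to Traf3 were Dennd4b (0.022), Plxnd1 (0.036) and Ralgps2 (0.038). Dennd4b was at 74.7 CPM with IL-4 + bryostatin 1 and 155 CPM with IL-4 on average, and Asxl1 was at 194 CPM with IL-4 + bryostatin 1 and 139 CPM with IL-4.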

How the data were processed

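RNA of 6 samples of cultured mouse splenic B cells, 3 with IL-4 + bryostatin 1 and 3 with IL-4, was sequenced from directional libraries. Adaptors and low-quality bases were removed by the authors (cutadapt, sickle), mapping used HISAT2, sorting SAMtools and counting featureCounts. The submitters' processing notes name the same tools apart from sickle. Not given in the sources used here are the versions, genome build, annotation and strand setting. The authors' deposited table holds counts, as whole numbers per RefSeq transcript in 139023 rows, together with the authors' own log2 fold change, p-value, q-value and rank columns, which were not used.

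For each gene the row with the highest mean was taken, since rows may share reads. The filter filterByExpr of edgeR, with a minimum count of 10 and a minimum total of 15, kept 13863 genes. Libraries were scaled by DEGES, the scaling named in the study's methods, rebuilt with TMM factors and exact tests in 3 rounds (false discovery rate 0.1, floor 5%), and tested with edgeR 4.0.16 in R 4.3.3 by the quasi-likelihood F test without covariates, with 4 residual degrees of freedom and p-values adjusted by Benjamini-Hochberg. The standard error is the size of the log2 fold change divided by the square root of F, and the 95% interval uses the degrees of freedom of the same test. No 2 samples of a group agreed within sampling noise (chi-square per gene 2.31 to 4.87).

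The 10 genes, the lists, the pairs and the tests were chosen with earlier results of these data known. The rule for named genes took these 10, up to 4 called genes of each list with the largest change and a mean of at least 5 CPM in a group, Birc2 and Cd40, and the 3 genes nearest in pattern to the highest and to the lowest of the 10 log2 fold changes. Marker genes, untested list genes and Map3k7, Traf4, Traf7, Tnfrsf8, Chuk, Map3k3, Tab1, Tab3, Ikbkg, Cd83, Cd86 and Icam1 are named outside this rule, with their values known. Alternatives covered the scaling, DESeq2 1.42.0, the filter, the rows summed or chosen, the replicate block, each sample left out and a threshold on the fold change. Python 3.11.15 with pandas 2.3.3, scipy 1.17.1, numpy 2.4.6 and matplotlib 3.10.9 was used for ratios, motifs and figures. Samples of the study cultured with TGF-β were not analysed here. A gene of the B cell marker list is not reported here and was left out of its sum and counts.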

Additional observations from a re-analysis of the deposited data

How the results depend on the processing

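Of the calls on the 10 genes, 9 were the same under every alternative scaling, test, filter, choice of rows, block and sample left out. The exception was Traf2, which passed without IL-4 + bryostatin 1 replicate 2 (log2 fold change -0.13, edgeR adjusted p = 0.036). In the list of kinases and partner subunits, the number called higher ranged from 1 to 2 as samples were left out, since Chuk was lost without IL-4 + bryostatin 1 replicate 1. The receptors called lower ranged from 4 to 5 as samples were left out. The other adaptors and ubiquitin ligases called lower ranged from 8 to 11, and the deubiquitinases and other inhibitors called higher from 8 to 9. With rows summed, 4 receptors were called lower, and with total counts only, 8 other adaptors and ubiquitin ligases were. When a log2 change of at least 1 in size was also required, 842 genes were called higher and 622 lower over the whole table, and 0 and 1 of the 10 genes. Under the same threshold the receptors had 1 higher and 0 lower, the other adaptors and ubiquitin ligases 1 and 0, the kinases and partner subunits 0 and 0, the deubiquitinases and other inhibitors 1 and 0, the NF-κB subunits and inhibitors 0 and 2, and the CD40 response genes 2 and 0. The replicate numbers were not taken as pairs, because it is not stated that they mark pairs. Correlations of deviations from the group means were 0.182, 0.083 and -0.033 for samples with the same number. For samples with unlike numbers they ran from -0.167 to 0.096. The highest value was that of the samples numbered 1, and these values do not settle whether there was a pairing. A fit with the replicate number as a block called 4279 genes higher and 4011 lower, and 2 and 6 of the 10 genes. With 3 samples in a group, a change of the size seen for Traf2 fell on either side of the threshold depending on 1 library, and RNA counts do not show the levels or the breakdown of the proteins.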
